A study of Mus musculus with 6 samples.

Results

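The genes described here are *Cxcr3*, a chemokine receptor gene, and *Cxcl9*, *Cxcl10* and *Cxcl11*, the genes of its interferon-gamma-induced ligands. They were picked by symbol and make up 4 of the 41786 gene symbols counted in endometriosis-like lesions of mice. They were picked with their niclosamide and vehicle levels already known, so those levels are given as a description and carry no test. For each lesion, uterus from a B6-GFP positive donor aged 6 weeks was sutured onto the peritoneal wall of a wild-type mouse aged 8 weeks. The mice were female C57BL/6, donor and recipient were matched for the stage of the estrous cycle, and the promoter of the GFP transgene is not given in the sources used here. After 3 days without treatment the recipients were given oral vehicle or niclosamide, an anthelmintic drug, at 200 mg/kg body weight daily for 3 weeks. Tissue of uterine origin was taken in diestrus, and the counts do not separate donor cells from recipient cells within it. Each group gave 3 RNA-seq libraries of 27797121 to 34797000 counts. Vehicle 1 held RNA pooled from 4 mice and every other library came from 1 mouse, so the vehicle spread mixes a pooled value with values of single animals.

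CXCR3 is a receptor of activated T cells, above all Th1 and CD8+ T cells, and of NK cells. Its ligands are small secreted chemokines made by macrophages, dendritic cells, endothelium, stroma and epithelium, and they guide CXCR3-bearing lymphocytes into inflamed tissue, where the interferon-gamma those lymphocytes release induces more ligand. *Cxcl9* depends mainly on interferon-gamma, whereas *Cxcl10* also answers to type I interferon and NF-kB. In endometriosis these chemokines have been studied as signals that bring lymphocytes into lesions.

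The ligand genes lie side by side on the minus strand of chromosome 5 (GRCm38.p3), within 41966 bases from 92321331 to 92363296. *Cxcl9* spans 92321331 to 92328079, *Cxcl10* 92346638 to 92348889 and *Cxcl11* 92359544 to 92363296, each with 4 annotated exons. *Cxcr3* lies on the minus strand of chromosome X at 101731536 to 101734147 and has 2 exons. The counted exons sum to 2905, 1101, 1605 and 1608 bases for *Cxcl9*, *Cxcl10*, *Cxcl11* and *Cxcr3*. RefSeq (GRCm38.p6, the C57BL/6J genome) lists *Cxcl11* as a transcribed pseudogene and the other members as protein coding, so the *Cxcl11* values below are transcript levels of a gene that this annotation gives no protein.

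The promoters of the more abundant ligand genes are shown because both genes answer to interferon-gamma, while the *Cxcl9* level relative to *Cxcl10* differed between the libraries. Promoter windows from 250 bases before to 50 after the start were taken from RefSeq (GRCm38.p6), which matched 3 of the 4 members. Capitals mark matches on either strand to the interferon-gamma-activated site (GAS, TTCNNNGAA), the core of the interferon-stimulated response element (ISRE), the NF-kB consensus, the T-box motif (TCACACC) or the TATA box (TATAAA), none of which overlap here. The windows are chr5:92328030-92328329 for *Cxcl9* and chr5:92348840-92349139 for *Cxcl10*, both on the minus strand.
Cxcl9: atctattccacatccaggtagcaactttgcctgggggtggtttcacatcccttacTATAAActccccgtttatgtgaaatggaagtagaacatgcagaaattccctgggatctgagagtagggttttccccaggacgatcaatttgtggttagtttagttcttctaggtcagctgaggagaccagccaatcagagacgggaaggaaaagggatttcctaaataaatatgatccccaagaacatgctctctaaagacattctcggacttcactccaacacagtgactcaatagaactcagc
Cxcl10: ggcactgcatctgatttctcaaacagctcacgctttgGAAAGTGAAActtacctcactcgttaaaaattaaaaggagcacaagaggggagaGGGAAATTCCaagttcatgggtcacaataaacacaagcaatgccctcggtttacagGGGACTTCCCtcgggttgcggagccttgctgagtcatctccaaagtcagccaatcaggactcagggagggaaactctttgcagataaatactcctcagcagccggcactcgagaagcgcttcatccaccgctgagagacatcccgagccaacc
The *Cxcl10* window held an ISRE core, GAAAGTGAAA, at -213 to -204 from the start, and a pair of NF-kB matches, GGGAAATTCC at -159 to -150 and GGGACTTCCC at -103 to -94. The only match in the *Cxcl9* window was TATAAA at -195 to -190, and the *Cxcr3* window held none. Whether these letters act as a TATA box was not tested, and other interferon-gamma elements were not searched for. Of all 32851 windows of this length, 3.44% held the ISRE core, 4.51% an NF-kB match, 8.3% a GAS element, 3.98% the T-box motif and 13.6% TATAAA. These matches describe letters, not binding, and a window without a match says only that the letters are not in it.

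*Cxcl9*, which encodes the ligand most strictly tied to interferon-gamma, had the most counts of the 4 members in every library. Levels are given as CPM, the count over the library size scaled by the trimmed mean of M values (TMM), in the order of libraries 1, 2 and 3. The vehicle libraries held 212, 222 and 185 CPM of *Cxcl9*. The niclosamide libraries held 564, 916 and 537 CPM. Every niclosamide library lay above every vehicle library, and niclosamide 2 stood highest. The ratio of the group means was 3.26. The coefficient of variation was 9.25% with vehicle and 31.4% with niclosamide. Without niclosamide 2 the niclosamide mean was 551 CPM in place of 672.

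*Cxcl10*, the ligand that type I interferon and NF-kB can also induce, stood at 88.5, 73.9 and 62.4 CPM with vehicle. With niclosamide it stood at 139, 176 and 82.8 CPM. Niclosamide 3 lay inside the vehicle range, below vehicle 1, so the groups overlapped. The log2 fold change, niclosamide over vehicle, was 0.82 ± 0.29 (SE) from edgeR's model, against 1.71 ± 0.25 for *Cxcl9*. The *Cxcl10* log2 fold change was 1.09 without niclosamide 3 and 0.55 without niclosamide 2.

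*Cxcl11*, a ligand transcript without an annotated protein in this strain, had the lowest level of the 4, in CPM and per kilobase alike. Its raw counts were 52, 54 and 47 with vehicle, against 129, 152 and 54 with niclosamide. That is 1.90, 1.48 and 1.48 CPM with vehicle and 4.38, 4.70 and 1.68 CPM with niclosamide. Niclosamide 3 again lay within the vehicle range, as for *Cxcl10*. The exact 95% Poisson intervals, which cover counting error only, were 1.26 to 2.19 CPM for niclosamide 3 and 3.66 to 5.21 CPM for niclosamide 1, and they did not meet. The log2 fold change was 1.15 ± 0.44 (SE).

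*Cxcr3*, the receptor gene, gave 14.4, 14.9 and 15.02 CPM with vehicle. With niclosamide it gave 28.8, 20.9 and 18.4 CPM. The groups did not overlap, and here niclosamide 1, not niclosamide 2, was the highest library. The vehicle libraries differed little, with a coefficient of variation of 2.25%, and all lay inside the exact 95% Poisson interval of vehicle 1, which ran from 13.0 to 15.9 CPM. The log2 fold change was 0.62 ± 0.20 (SE), and it was 0.40 without niclosamide 1, smaller by over 1.5 times on the log2 scale.

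**Figure D1:**
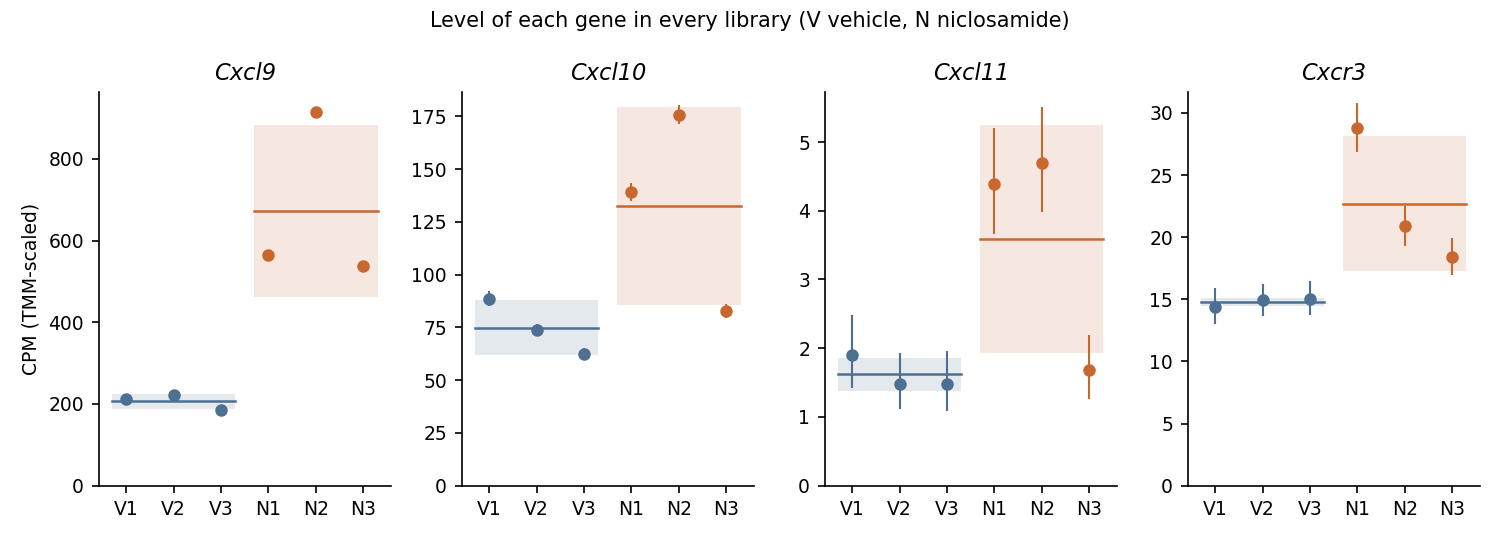
Level of each gene in CPM (TMM-scaled, axes from 0) in vehicle libraries 1 to 3 (V, blue) and niclosamide libraries 1 to 3 (N, orange), with points and exact 95% Poisson intervals per library, lines for group means and bands for ± 1 SD (n = 3). The niclosamide points of *Cxcl9* (537 to 916 CPM) and *Cxcr3* (18.4 to 28.8 CPM) all lie above the vehicle points, whereas niclosamide 3 lies among the vehicle points for *Cxcl10* and *Cxcl11*.

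All 4 members passed the filter on low counts. With edgeR (quasi-likelihood test), 0 of the 4 had a Benjamini-Hochberg adjusted p under 0.05, as had 0% of the 17364 genes tested. At an unadjusted p under 0.05, 4 of 4 were higher with niclosamide beside 3.37% of all genes tested, and 0 were lower beside 3.55%, which sums to 6.92% of genes in either direction. The groups did not overlap in 2 of 4, *Cxcl9* and *Cxcr3*, both higher with niclosamide, beside 5.9% of all genes higher and 6.37% lower. DESeq2 (Benjamini-Hochberg adjusted) called 1 member, *Cxcl9*, as higher beside 0.424% of its tested genes higher and 1.01% in either direction, and limma-voom called 0. Since the members were chosen with this contrast known, these counts support nothing about them. The unadjusted count was also sensitive to single libraries. It was 1 of 4 without vehicle 2, and 2 without vehicle 1, vehicle 3, niclosamide 1 or niclosamide 2. It was 4 without niclosamide 3. The same count of higher genes over all genes tested moved as well. It was 347 of 17797 without vehicle 2, 453 of 17853 without vehicle 1 and 333 of 17755 without vehicle 3. Without niclosamide 1, 2 and 3 in turn it was 468 of 17749, 684 of 17828 and 982 of 17776, beside 585 of 17364 in the main fit.

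Levels of different genes were compared per kilobase of counted exon. In vehicle lesions *Cxcl9* and *Cxcl10* were nearly equal, at 71.0 ± 6.56 and 68.0 ± 11.9 CPM per kb (SD, n = 3), a difference smaller than either SD. Their ratio was 0.907, 1.14 and 1.12 with vehicle. With niclosamide it was 1.54, 1.97 and 2.46, above every vehicle library. *Cxcl9* made up 47.2% to 52.9% of the summed ligand transcripts with vehicle and 60.1% to 70.8% with niclosamide. *Cxcl11* stayed between 0.401% and 0.845% of the sum in all 6 libraries. Niclosamide 3, with the lowest *Cxcl10* and *Cxcl11* levels of its group, had the highest *Cxcl9* share. The summed ligand level was 121 to 154 CPM per kb with vehicle and 261 to 478 with niclosamide.

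**Figure D2:**
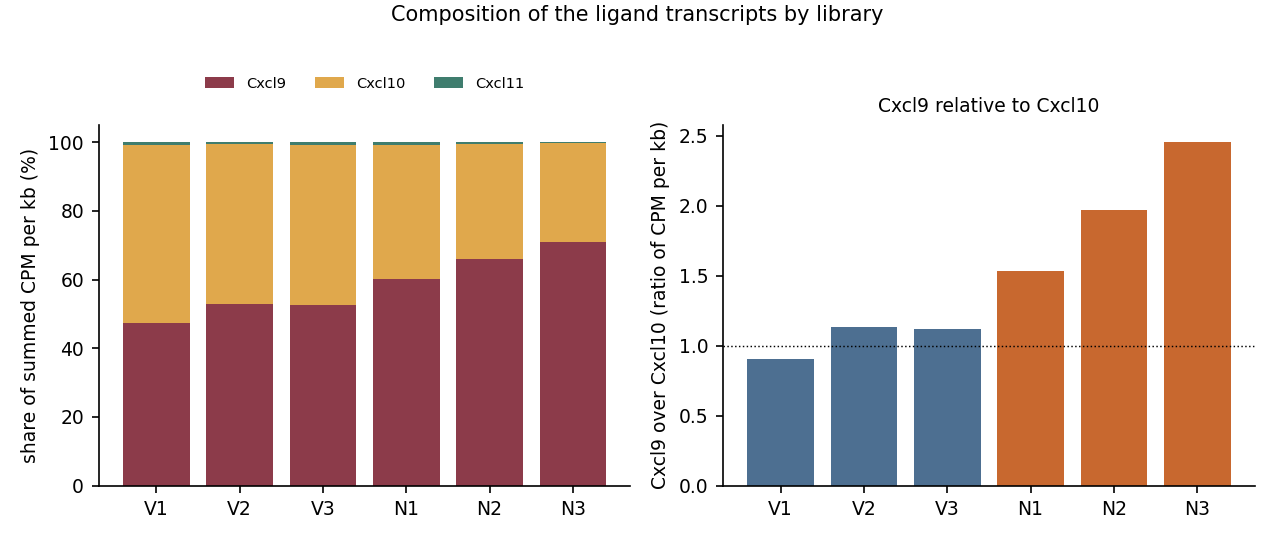
Left, share of *Cxcl9*, *Cxcl10* and *Cxcl11* in their summed CPM per kb for each library (V vehicle, N niclosamide), in percent. Right, *Cxcl9* over *Cxcl10* as a ratio of CPM per kb, with a dotted line at equal levels. The ratio is 0.907 to 1.14 in the vehicle libraries (blue) and 1.54 to 2.46 in the niclosamide libraries (orange).

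All 13 genes of interferon-gamma and its inducers had higher fitted levels with niclosamide, and none passed the test. *Ifng* itself stood at 5.29, 4.42 and 2.14 CPM with vehicle and at 18.4, 29.4 and 5.16 CPM with niclosamide. Niclosamide 3 again lay inside the vehicle range, just below vehicle 1, and niclosamide 2 was again the highest. *Tbx21*, the T-box factor of Th1 and NK cells, had 6.38 to 7.58 CPM with vehicle and 10.1 to 15.4 with niclosamide, and *Il12rb2*, the inducible chain of the IL-12 receptor, 2.58 to 3.65 and 4.91 to 11.8. *Il18r1*, the IL-18 receptor chain and the most abundant gene of the list, had 33.0 to 38.8 CPM with vehicle and 76.2, 63.7 and 37.2 with niclosamide. The median log2 fold change of the list was 0.71 beside 0.02 over all genes tested. None passed edgeR's test (lowest Benjamini-Hochberg adjusted p = 0.59). At an unadjusted p under 0.05, 7 were higher, beside 3.37% of all genes tested. DESeq2 called 3 higher (*Il12rb2*, *Il18* and *Tbx21*), beside 0.424% of its tested genes. The unadjusted count was 4 without vehicle 3, beside 333 of all 17755 genes tested. It was 11 without niclosamide 3, beside 982 of 17776.

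Of the genes that relay the interferon-gamma signal, *Irf1*, an interferon-gamma-induced transcription factor, gave 247, 217 and 175 CPM with vehicle and 338, 446 and 199 with niclosamide. Niclosamide 3 lay inside the vehicle range and niclosamide 2 stood highest, as for *Ifng*. *Irf8*, a factor of macrophages and dendritic cells, averaged 106 ± 12.7 and 152 ± 41.6 CPM (SD, n = 3), with a log2 fold change of 0.52 ± 0.23 (SE). Neither passed edgeR's test (Benjamini-Hochberg adjusted p = 0.785 for *Irf1* and 0.76 for *Irf8*). Both lay above the list median. Of the 9 genes of this list 7 had a log2 fold change above 0 and 2 below, with a median of 0.26. Without niclosamide 2 the median was 0.085, with 5 genes above 0 and 4 below. None of the 9 passed edgeR's test, and DESeq2 called 0.

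**Figure D3:**
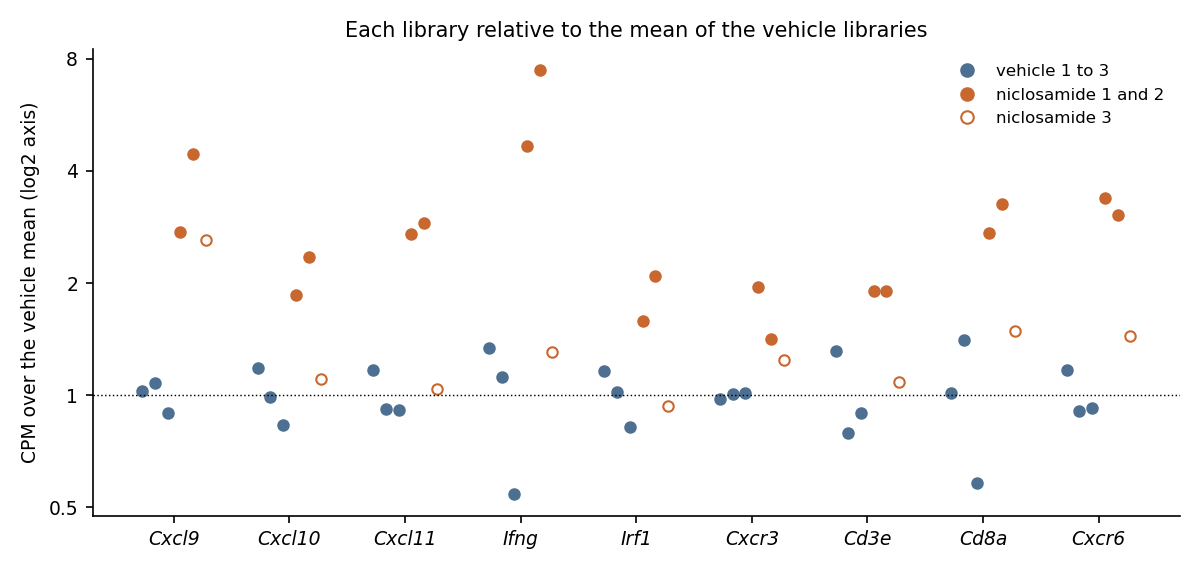
CPM of each gene in each library over the mean of the 3 vehicle libraries (log2 axis), for vehicle 1 to 3 (blue), niclosamide 1 and 2 (filled orange) and niclosamide 3 (open orange). Niclosamide 3 stands at 2.60 for *Cxcl9*, against 1.11 for *Cxcl10*, 1.04 for *Cxcl11*, 1.31 for *Ifng* and 0.934 for *Irf1*.

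The ratio of *Cxcl9* to *Ifng*, per kilobase, ranged from 16.7 to 35.9 with vehicle and from 12.7 to 43.2 with niclosamide, where niclosamide 3 was the highest of all libraries.

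Other interferon-gamma-induced genes, chemokines left out, had higher fitted levels with niclosamide throughout. All 25 interferon-gamma targets tested had a log2 fold change above 0, with a median of 0.98 beside 0.02 over all genes. Their summed level overlapped between the groups, at 5480 to 8286 CPM with vehicle and 8141 to 16044 with niclosamide. Niclosamide 3 was the lowest of its group and lay below vehicle 1. The groups did not overlap in 9 of the 25 genes, beside 5.9% of all genes tested that were higher without overlap. *Gbp8* and *Gbp3*, guanylate-binding protein genes, averaged 43.8 ± 18.5 and 190.1 ± 52.3 CPM with vehicle (SD, n = 3). With niclosamide *Gbp8* averaged 138 ± 40.0 CPM, and *Gbp3* had 307, 489 and 330.5 CPM. *Cd74*, the invariant chain of MHC class II and the most abundant of the list, averaged 2272 ± 908 and 3443 ± 968 CPM. None passed edgeR's test (lowest Benjamini-Hochberg adjusted p = 0.53), and DESeq2 called 1, *Gbp8*, as higher, beside 0.424% of its tested genes. At an unadjusted edgeR p under 0.05, 15 of 25 were higher, beside 3.37% of all genes tested. That 15 became 5 without vehicle 3, 8 without vehicle 2 and 8 without niclosamide 2. It became 14 without vehicle 1, 11 without niclosamide 1 and 21 without niclosamide 3. Over all genes tested, 333 of 17755 were higher without vehicle 3 and 982 of 17776 without niclosamide 3. Guanylate-binding protein genes have near-identical copies, so their counts are uncertain where reads could not be placed. The median was 0.61 without niclosamide 2 and 1.13 without niclosamide 3, and all 25 genes were above 0 in each of the 13 alternative fits.

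For the 16 antiviral genes induced by type I interferon the median log2 fold change was -0.08, with 6 genes above 0 and 10 below. *Oas2*, a sensor of double-stranded RNA, averaged 90.1 ± 15.7 CPM with vehicle and 57.2 ± 18.2 with niclosamide, *Ifit2* 68.3 ± 24.3 and 99.6 ± 20.2, and *Oasl2*, the most abundant, 182 ± 16.5 and 173 ± 50.1. None passed edgeR's test (lowest Benjamini-Hochberg adjusted p = 0.71), 1 had an unadjusted p under 0.05, *Oas2*, which was lower, and DESeq2 called 0. The median was -0.32 without niclosamide 2, and 0.07 without niclosamide 1 or niclosamide 3, so its sign rested on single libraries. The difference between the lists was not tested.

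**Figure D4:**
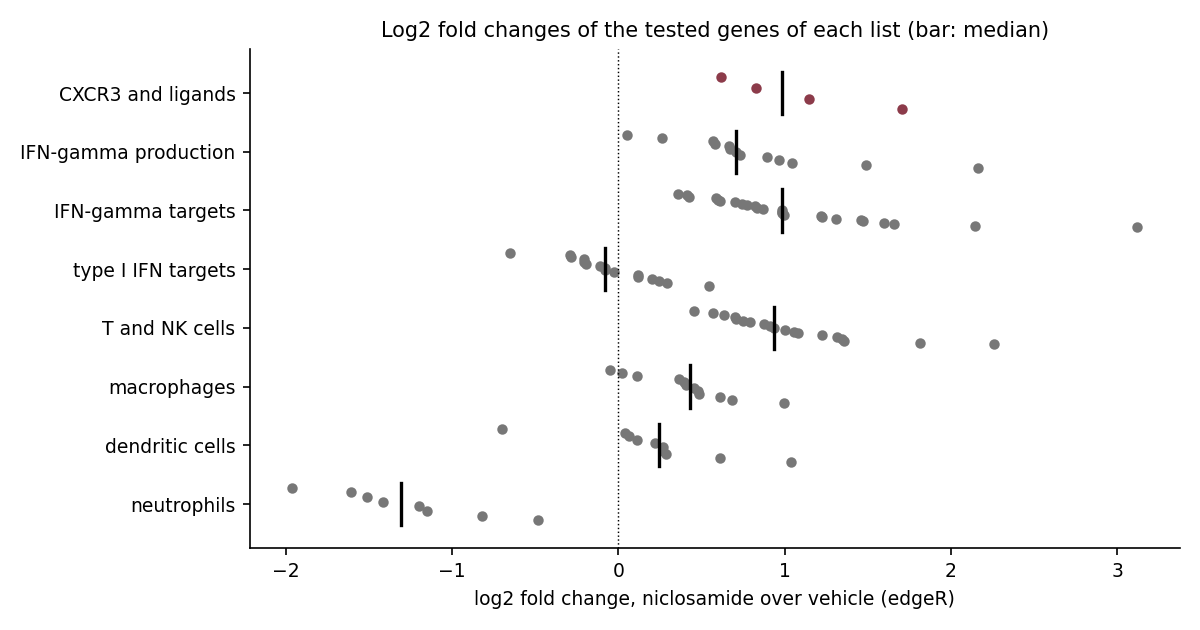
Log2 fold change, niclosamide over vehicle (edgeR), of each tested gene by list, with a black bar for the list median and a dotted line at 0. The members lie between 0.62 and 1.71, all 25 interferon-gamma targets lie above 0, and the type I interferon targets lie on both sides of it with a median of -0.08.

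Among the 15 CXC chemokine ligand genes counted, *Cxcl9* had the highest level per kilobase in each niclosamide library and *Cxcl10* the next highest. With vehicle, *Cxcl9* ranked 6, 3 and 3 and *Cxcl10* 5, 4 and 4 in libraries 1, 2 and 3. The leading place there belonged to *Cxcl14*, a chemokine of epithelium and stroma, in vehicle 1 and 2 and to *Cxcl5*, a neutrophil attractant, in vehicle 3. *Cxcl14* averaged 137 ± 52.5 CPM per kb with vehicle and 52.2 ± 21.1 with niclosamide, without overlap. *Cxcl2*, another neutrophil attractant, averaged 60.0 ± 38.1 and 24.1 ± 9.93 CPM per kb, and *Cxcl12*, a constitutive stromal chemokine, 41.2 ± 12.9 and 44.2 ± 4.63. *Cxcl11* ranked 13 or 14 in every library. In the vehicle order of *Cxcl14*, *Cxcl5*, *Cxcl9*, *Cxcl10* and *Cxcl2*, no neighbours differed beyond the larger SD of the pair.

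Of the 11 other CXC ligand genes tested, 4 had a log2 fold change above 0 and 7 below, with a median of -0.61. None passed edgeR's test (lowest Benjamini-Hochberg adjusted p = 0.60), *Cxcl14* was lower at an unadjusted p under 0.05, and DESeq2 called 0. Leaving out single libraries placed the median between -1.05, without niclosamide 2, and -0.19, without vehicle 1. *Cxcl15* did not pass the filter, with at most 0.714 CPM in any library.

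**Figure D5:**
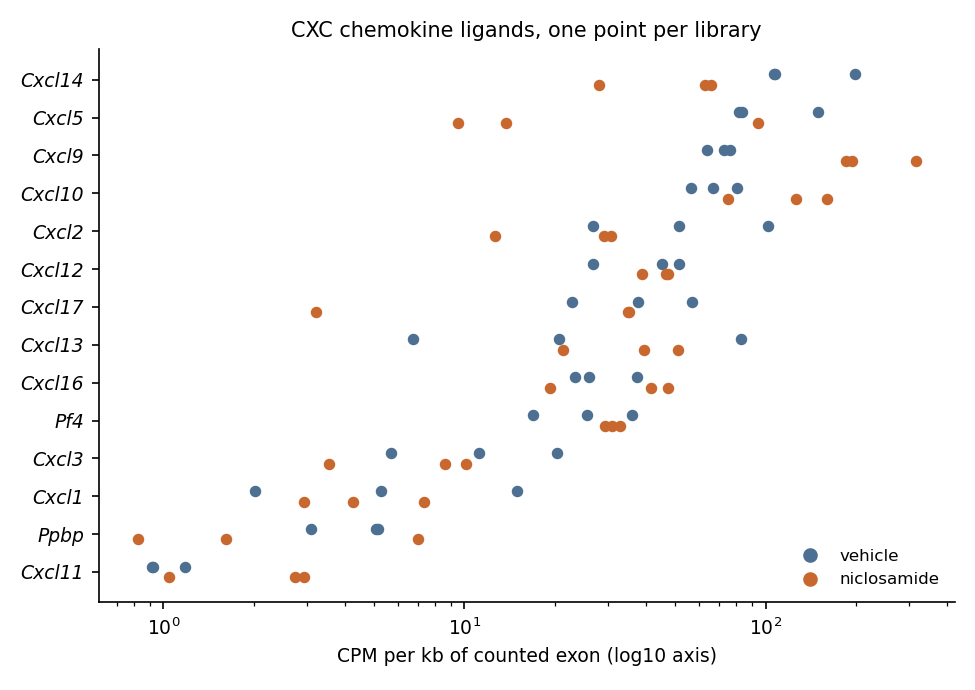
CPM per kb of counted exon (log10 axis) of 14 CXC ligand genes in vehicle (blue) and niclosamide (orange) libraries, 1 point per library, ordered by the vehicle mean. *Cxcl9* lies at 63.6 to 76.3 with vehicle and at 185 to 315 with niclosamide, to the right of every other ligand in the niclosamide libraries.

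*Cxcr3* ranked 6, 5 and 6 among 11 CXC and related chemokine receptor genes per kilobase with vehicle, and 3, 4 and 4 with niclosamide. *Cxcr6*, a receptor of tissue T cells and NK cells for CXCL16, showed 40.7, 31.5 and 32.0 CPM with vehicle and 118, 106 and 50.2 CPM with niclosamide, without overlap. *Cxcr2*, the neutrophil receptor, had 54.5, 40.3 and 72.9 CPM with vehicle and 7.51, 22.7 and 12.8 with niclosamide, also without overlap. *Cxcr4*, the CXCL12 receptor and the most abundant by CPM, averaged 70.3 ± 26.6 and 64.7 ± 20.6 CPM. Of the 10 receptor genes beside *Cxcr3*, 4 were above 0 and 6 below, 0 passed edgeR's test (lowest Benjamini-Hochberg adjusted p = 0.53), 2 were higher (*Cxcr6* and *Xcr1*) and 2 lower (*Cxcr2* and *Cxcr1*) at an unadjusted p under 0.05, and DESeq2 called *Cxcr6* higher and *Cxcr2* lower.

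None of the genes that handle the ligands or relay the receptor passed the test. *Dpp4*, the peptidase that trims and inactivates CXCR3 ligands, averaged 34.9 ± 4.95 CPM with vehicle and 37.4 ± 7.71 with niclosamide. *Ackr3*, a scavenging receptor that binds CXCL11, averaged 45.1 ± 6.58 and 39.8 ± 11.2, and *Pf4*, a platelet chemokine that can bind CXCR3, 30.7 ± 11.2 and 36.5 ± 2.05. *Pik3cg*, the kinase subunit that chemokine receptors activate in leukocytes, had a log2 fold change of 0.52 ± 0.24 (SE), and *Gnai2*, a G protein subunit of this receptor class, -0.09 ± 0.19. Of 10 genes 7 were above 0 (median 0.09), 0 passed edgeR's test at an adjusted or an unadjusted p under 0.05, and DESeq2 called 0.

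The receptor gene was also read beside markers of the cells that carry it. In bulk tissue, more cells of a type and more RNA per cell cannot be told apart. The 3 CD3 chain genes *Cd3d*, *Cd3e* and *Cd3g* summed to 60.8 to 86.0 CPM per kb with vehicle and 95.6 to 152 with niclosamide. *Cxcr3* per 100 units of this sum was 10.4, 15.2 and 13.8 with vehicle, as against 11.8, 8.67 and 12.0 with niclosamide. The groups overlapped in this ratio, and whether T cell content accounts for the *Cxcr3* difference was not tested. *Cxcl9* over the CD3 sum was 0.848 to 1.25 with vehicle and 1.28 to 2.11 with niclosamide, and *Cxcl10* over the CD3 sum overlapped, at 0.835 to 1.10 and 0.787 to 1.07. *Cd8a* gave 31.5, 43.7 and 18.1 CPM with vehicle and 84.6, 102 and 46.4 with niclosamide, while the NK receptor gene *Ncr1* was highest in niclosamide 3, at 21.2 CPM, and had 3.61 to 10.6 CPM elsewhere.

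All 19 T and NK cell genes were above 0 (median log2 fold change 0.94), and 0 passed edgeR's test (lowest Benjamini-Hochberg adjusted p = 0.50). At an unadjusted p under 0.05, 15 were higher, beside 3.37% of all genes tested. Without vehicle 3 it was 11, beside 333 of all 17755 genes tested. DESeq2 called 5 higher (*Cd3g*, *Klrd1*, *Klrk1*, *Prf1* and *Gzmb*), beside 0.424% of its tested genes. The summed level of the 19 genes was 425 to 552 CPM with vehicle and 709 to 1197 with niclosamide, and the part of these cells in the *Cxcr3* difference was not tested. *Klrd1* (CD94) averaged 25.3 ± 3.11 and 64.2 ± 17.1 CPM, *Klrk1* (NKG2D) 31.2 ± 7.99 and 64.7 ± 9.34, and *Ccl5*, a T cell chemokine and the most abundant of the list, 81.0 ± 43.0 and 207 ± 105.

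Summed markers of macrophages, dendritic cells and endothelium, which can make the ligands, overlapped between the groups. The 12 macrophage genes summed to 1750 to 3106 CPM with vehicle and 2103 to 3862 with niclosamide, overlapping, with 11 above 0 (median 0.43), 0 passing edgeR's test (lowest Benjamini-Hochberg adjusted p = 0.65), 1 higher at an unadjusted p under 0.05 and 0 called by DESeq2. *Mertk*, a receptor for dying cells, averaged 33.5 ± 1.53 and 67.0 ± 33.0 CPM, and *C1qb*, the most abundant of the list, 423 ± 161 and 678 ± 201. *Cxcl9* over *Csf1r*, the macrophage growth factor receptor gene, was 0.867 to 1.69 with vehicle and 1.73 to 3.93 with niclosamide per kilobase, and *Cxcl10* over *Csf1r* overlapped, at 0.955 to 1.49 and 1.13 to 1.92. Of 10 dendritic cell genes 9 were above 0 (median 0.24), 0 passed edgeR's test (lowest Benjamini-Hochberg adjusted p = 0.68), 2 were higher at an unadjusted p under 0.05 (*Xcr1* and *Clec9a*, both of the cross-presenting subset) and DESeq2 called 0. Endothelial genes had a median of -0.10 with summed levels of 483 to 688 and 419.7 to 555 CPM, and 0 of 8 passed edgeR's test, 1 being lower at an unadjusted p under 0.05.

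Several other cell types and signs of library quality differed with the groups or with single libraries, and their part in the member values was not tested. The 8 neutrophil genes summed to 442 to 885 CPM with vehicle and 243.4 to 366 with niclosamide, without overlap, and 0 of the 8 passed edgeR's test. At an unadjusted p under 0.05, 6 were lower, beside 3.55% of all genes tested. DESeq2 called 4 lower (*Cxcr2*, *Mmp9*, *Trem1* and *Il1r2*), beside 1.01% of its tested genes in either direction. Smooth muscle genes, also apart, summed to 5739 to 8469 and 1938 to 4789 CPM. B and plasma cell genes summed to 969 to 1343 and 1812 to 3884 CPM, without overlap. Gene by gene the difference was smaller: the median log2 fold change of the 9 genes was 0.16. Of these, 2 were higher without overlap, beside 5.9% of all genes tested. At an unadjusted p under 0.05, 3 were higher, beside 3.37% of all genes tested. DESeq2 called 2 higher, beside 0.424% of its tested genes, and 0 passed edgeR's test. Without vehicle 2 the median was -0.15, with 3 genes above 0 and 6 below. Skeletal muscle genes ran from 836 CPM in niclosamide 2 to 31701 in niclosamide 1, adipocyte genes from 38.2 to 720 in the same libraries, and epithelial genes from 386 in niclosamide 1 to 2346 in niclosamide 2. Of the 6 structural RNAs, 4 were lower in every niclosamide library than in any vehicle library, beside 6.37% of all genes tested. *Rn7sk* had 17.4 to 42.5 CPM with vehicle and 1.03 to 9.45 with niclosamide. Stromal, mesothelial and lymphoid stroma sums overlapped. Of the 215 list genes beside the members, 0 passed edgeR's test and DESeq2 called 17. No defining marker of these cell lists was at 0 in any library, and *Foxa2*, a gene of uterine glands, was counted at 1.70 to 3.68 CPM with vehicle and 0.476 to 1.12 with niclosamide.

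The genes most like each member were taken by Pearson correlation of log2 CPM over the 6 libraries. This is a description, because both groups enter and any difference between them raises the value. Only genes with a mean log2 CPM of at least 1 were ranked. Gm, LOC, Rik and other predicted symbols were left out, as were immunoglobulin and T cell receptor segments. For *Cxcl9* they were *Klrd1* (r = 0.993), *Ifi205*, an interferon-inducible gene (0.990), *Casp1*, the inflammatory caspase gene (0.990), *Dnajc15* (0.987) and *Skap1*, a T cell adaptor gene (0.985). For *Cxcl10* they were *Unc13d*, which primes cytotoxic granules for release (r = 0.998), *Ly86* (0.997), *Gpr171* (0.993), *Ifng* (0.993) and *Tmco4* (0.993). *Ifng* was thus among the 5 ranked genes nearest to *Cxcl10*, with r = 0.869 for *Cxcl9*.

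For *Cxcl11* the nearest genes were *Havcr2*, the TIM-3 receptor gene (r = 0.996), *Milr1* (0.993), *Sla* (0.992), *Naip2* (0.992) and *Samhd1*, a nucleotide hydrolase gene (0.991). For *Cxcr3* they were *Rasgrp1*, a Ras activator of T cells (r = 0.992), *Plxnc1* (0.991), *Mertk* (0.990), *Gpr162* (0.990) and *Gimap3* (0.989). With only 6 points, high values were not confined to the genes named. Over all 17363 other tested genes, r was at least 0.95 for 44, 106, 141 and 103, for *Cxcl9*, *Cxcl10*, *Cxcl11* and *Cxcr3*. Between members, r was 0.973 for *Cxcl10* with *Cxcl11* and 0.860 for *Cxcl9* with *Cxcl10*.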

How the data were processed

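RNA-seq was done on 6 lesion libraries, 3 per group. The authors deposited raw read counts, 1 whole number for each gene symbol and library. Per the file headers, the counts came from featureCounts 1.4.6-p4 over exons, reverse-stranded, on STAR alignments and a GRCm38.p3 annotation, with no option set to count multi-mapping reads. The submitters' processing notes name Trimmomatic 0.33 and STAR 2.4.2a. Totals were 27797121 to 34797000 counts per library, so that 3 counts, the limit a count of 0 allows, are 0.0862 to 0.108 CPM.

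Counts were fitted with edgeR 4.0.16 (R 4.3.3): filterByExpr (minimum count 10, total 15), TMM, robust quasi-likelihood test with the group as the only term, and Benjamini-Hochberg adjustment over 17364 genes at 0.05. Each SE was derived from the log2 fold change and its F statistic. Log2 CPM used a prior count of 2. The fit was run on simulated counts with the same dispersion for every gene, which does not show how it performs on these data. The members and gene lists were chosen with earlier results of these data known. From each list the text names the genes with the 2 smallest p values, the most abundant gene and some genes fixed by name. *Cxcl5*, *Cxcl15*, *Il18* and the genes given with a count of calls were named after their values were seen. *Xcr1*, *Pf4*, *Ackr3*, *Cxcr2* and *Cxcl13* belong to 2 lists each, and 1 gene of the lists is not reported here. Alternatives were RLE and upper quartile scaling, DESeq2 1.42.0, limma-voom (limma 3.58.1), other filters, a replicate block and leaving out each library.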

Additional observations from a re-analysis of the deposited data

How the results depend on the processing

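Under all 13 alternatives (2 scalings, DESeq2, limma-voom, no filter, a stricter filter of at least 1 CPM in 3 libraries, a replicate block and 6 fits without 1 library), the log2 fold changes of the 4 members kept their sign. All moved by less than the pooled SD of log2 CPM. Leaving out 1 of 3 libraries can hardly move a value that far, so that limit says little. The log2 fold changes ranged from 1.403 to 1.86 for *Cxcl9*, 0.55 to 1.09 for *Cxcl10*, 0.89 to 1.50 for *Cxcl11* and 0.40 to 0.76 for *Cxcr3*. The lowest value lay below the main fit by more than the SE for *Cxcl9* (SE 0.25, without niclosamide 2) and *Cxcr3* (SE 0.20, without niclosamide 1). The count of genes called at an adjusted p under 0.05 was 0 by edgeR with TMM, RLE or upper quartile scaling, with the stricter filter, with the replicate block and without any 1 library (0 to 0), and 0 by limma-voom. It was 178 by DESeq2 and 1 without a filter on low counts. Among the genes of the lists beside the members it was 0 under each of these settings except DESeq2, which called 17. The cause of these differences was not tested. The replicate numbers were not taken as pairs, and 3 libraries per group are too few to settle whether they are. Deviations of same-numbered libraries from their group means correlated at -0.08, -0.09 and 0.27. Those of differently numbered libraries correlated at -0.36 to 0.36. With the replicate block the member values were 1.67, 0.77, 1.03 and 0.59 for *Cxcl9*, *Cxcl10*, *Cxcl11* and *Cxcr3*. Of the list medians over these settings, 6 moved by more than the SD of the list's mean log2 CPM between replicates and 267 by less. Depth limits *Cxcl11* most, since it rests on 47 to 152 counts per library, and 3 libraries per group limit every comparison.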
